A study of Homo sapiens with 12 samples.

Results

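The genes described here belong to the adherens junction or are relatives of its genes, and were measured in MDA-MB-231 cells, a triple-negative breast cancer line: the catenins CTNNB1, CTNNA1, CTNND1 and JUP, the cadherins CDH3, CDH4, CDH6, CDH11 and CDH13, and the polarity gene PARD3. They were chosen by name, as junction genes other than CDH1 and CDH2, and each was found once among the identifiers of the count table, giving 10 of 63568. The cells carried a nuclear GFP marker and were grown in Matrigel, and RNA was sequenced from 12 samples, 2 for each of 6 conditions. C1 was untreated and collected on day 2. C2 was untreated and collected on day 4. The other 4 conditions received Paclitaxel on day 2, per the labels, at 0.0005, 0.005, 0.05 or 0.5 μM and were collected on day 4. The methods give a later day of addition for the imaged cultures, so the exposure of the sequenced samples rests on the labels alone. All samples came from 1 cell line. The spread between the 2 samples of a condition is the error when single conditions are compared. When all Paclitaxel samples are set against all untreated ones, the error also holds the differences between doses and between C1 and C2, and in the slope over doses any departure from a straight line.

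Classical cadherins are transmembrane proteins that bind cadherins on the neighbouring cell, and their tails hold β-catenin or plakoglobin together with p120-catenin. α-catenin links β-catenin to actin, and β-catenin that is not bound to cadherin can also act with TCF/LEF factors in the nucleus. MDA-MB-231 cells are known for very little E-cadherin, so other cadherins are the candidates to occupy the catenins. Paclitaxel binds and stabilises microtubules.

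Total counts ran from 38380629 to 79169121 per sample, with a median of 65977095.5. The C1 samples stood apart from each other. C1 replicate 2 had the lowest total and read GC-rich genes low (a GC lean of -0.47), whereas C1 replicate 1 read them high (0.37), and the other samples lay between -0.19 and 0.27. The GC lean is the median log2 deviation of genes with exons of at least 60% GC minus that of genes with at most 40%. JUP and CDH4 have the highest exon GC of the 10 genes (61.2% and 58.8%), and their values are also given without each C1 sample. Markers of mesenchymal-like breast cancer cells (VIM, CD44, AXL and 5 others) were all above 1 CPM, and their sum was 4143 to 4726 CPM in untreated and 3532 to 4600 CPM in Paclitaxel samples. The 11 luminal or other epithelial markers summed to 688 to 836 and 725 to 1013 CPM, and the 5 receptors that are low in triple-negative cancers to 33.6 to 65.8 and 36.5 to 48.7 CPM. CPM are counts scaled to a common library size, after edgeR's TMM scaling.

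The cadherin that names epithelial junctions was nearly absent. CDH1 (E-cadherin) had 2 to 17 counts per sample, a mean level of 0.104 CPM, and CDH2 (N-cadherin) a mean level of 0.774 CPM. Per kilobase of exon, the level of the 10 genes followed the order CTNNA1 (67.2 CPM per kb, mean of 12 samples), CTNNB1 (49.0), CDH11 (36.3), JUP (12.2), CTNND1 (12.03), PARD3 (11.8), CDH4 (3.17), CDH3 (0.541), CDH13 (0.0206) and CDH6 (0.00481). CTNNA1 was above CTNNB1 and CTNNB1 above CDH11 in 12 of 12 samples, although their ranges overlapped. JUP, CTNND1 and PARD3 could not be ordered: JUP exceeded CTNND1 in 5 of 12 samples, and CTNND1 exceeded PARD3 in 6 of 12. With coding length in place of exon length CTNNB1 came before CTNNA1, and with the longest transcript or coding length CTNND1 came before JUP. The plot of levels per kilobase shows the wide step between CDH4 and CDH3 and the near absence of CDH13 and CDH6.

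**Figure D1:**
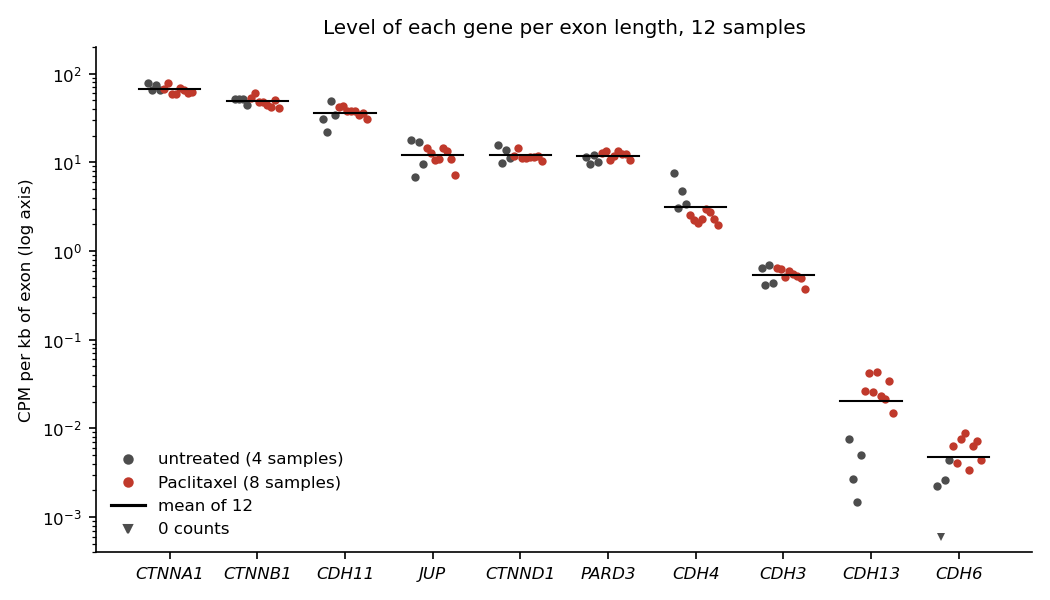
Level of the 10 genes in CPM per kilobase of exon (log axis), 1 point per sample with untreated samples in grey and Paclitaxel samples in red; lines are means of 12 samples. CTNNA1, CTNNB1 and CDH11 lie highest, and a triangle marks the 1 sample with 0 counts of CDH6.

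CDH11 (cadherin-11 or OB-cadherin, known from osteoblasts and mesenchymal cells) made up most of the cadherin signal. Over 20 cadherins (classical and type II cadherins together with CDH13), it held a mean of 78.3% of the summed CPM per kb, from 68.2% to 84.4% across samples. CDH24 followed with a mean share of 10.5%. It was named after its values were seen. CDH4 held 6.98% on average, from 4.35% to 17.0%, and CDH3 held 1.17%. The remaining cadherins, CDH1 and CDH2 included, each held at most 1.15% on average.

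β-catenin is the bridge from the cadherin tail to α-catenin and is encoded by CTNNB1 (ENSG00000168036, GRCh37 chr3:41236232-41301587, plus strand). Its level was 617 and 607 CPM in C1, 611 and 528 in C2, 626 and 712 at 0.0005 μM, 564 and 561 at 0.005 μM, 518 and 490 at 0.05 μM, and 599 and 484 at 0.5 μM. The untreated range fell inside the Paclitaxel range. Paclitaxel samples differed from untreated samples by -0.04 on the log2 scale (SE 0.11, adjusted p = 0.816, edgeR quasi-likelihood test with Benjamini-Hochberg adjustment). The slope over the 4 doses was -0.11 per 10-fold dose (SE 0.05, unadjusted p = 0.0472, adjusted p = 0.264 by edgeR).

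α-catenin (CTNNA1, ENSG00000044115, GRCh37 chr5:137946656-138270723, plus strand), which ties β-catenin to actin filaments, had the smallest span of the 10 genes from lowest to highest sample. Its level ran from 523 CPM (0.005 μM replicate 2) to 702 CPM (C1 replicate 1), a 1.34-fold span. The lowest, median and highest Paclitaxel samples had 523, 562 and 695 CPM, against 574, 620 and 702 CPM in the untreated samples. 5 of the 8 Paclitaxel samples lay below every untreated sample. The log2 difference was -0.12 (SE 0.10, adjusted p = 0.434, edgeR), near the median of -0.14 over abundant genes (above 8 CPM) in this comparison. Per kilobase, CTNNA1 stood at 1.20 to 1.56 times CTNNB1.

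p120-catenin (CTNND1, ENSG00000198561, GRCh37 chr11:57520715-57587018, plus strand) binds the part of the cadherin tail nearest the membrane and slows cadherin uptake. It ranged from 150 to 236 CPM in untreated samples, both limits set by the C1 samples, and from 157 to 218 CPM in Paclitaxel samples. The groups overlapped, and the log2 difference was -0.09 (SE 0.12, adjusted p = 0.607, edgeR). In the annotation used here, an unnamed gene on the same strand covers 39.1% of its exon length but is not among the counted identifiers, and a counted one covers 12.7%.

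Plakoglobin (JUP, ENSG00000173801, GRCh37 chr17:39910856-39943183, minus strand) is the close relative of β-catenin that also serves desmosomes. Its level was 89.1 and 33.4 CPM in C1, 84.7 and 47.4 in C2, 72.6 and 63.2 at 0.0005 μM, 52.8 and 53.8 at 0.005 μM, 70.9 and 65.8 at 0.05 μM, and 53.7 and 35.8 at 0.5 μM. Replicates of both untreated conditions differed more than any pair of conditions did in their means, and the untreated range contained all 8 Paclitaxel values. The 0.5 μM samples differed from C2 by -0.56 on the log2 scale (SE 0.37, adjusted p = 0.394, edgeR). All Paclitaxel samples against untreated gave -0.11 (SE 0.22, adjusted p = 0.755, edgeR), which became 0.09 without C1 replicate 1 and -0.34 without C1 replicate 2. An identifier with no symbol in the table (ENSG00000261577) had counts equal to 99.3% to 99.8% of the JUP count in every sample. Whether reads were assigned to both was not tested.

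**Figure D2:**
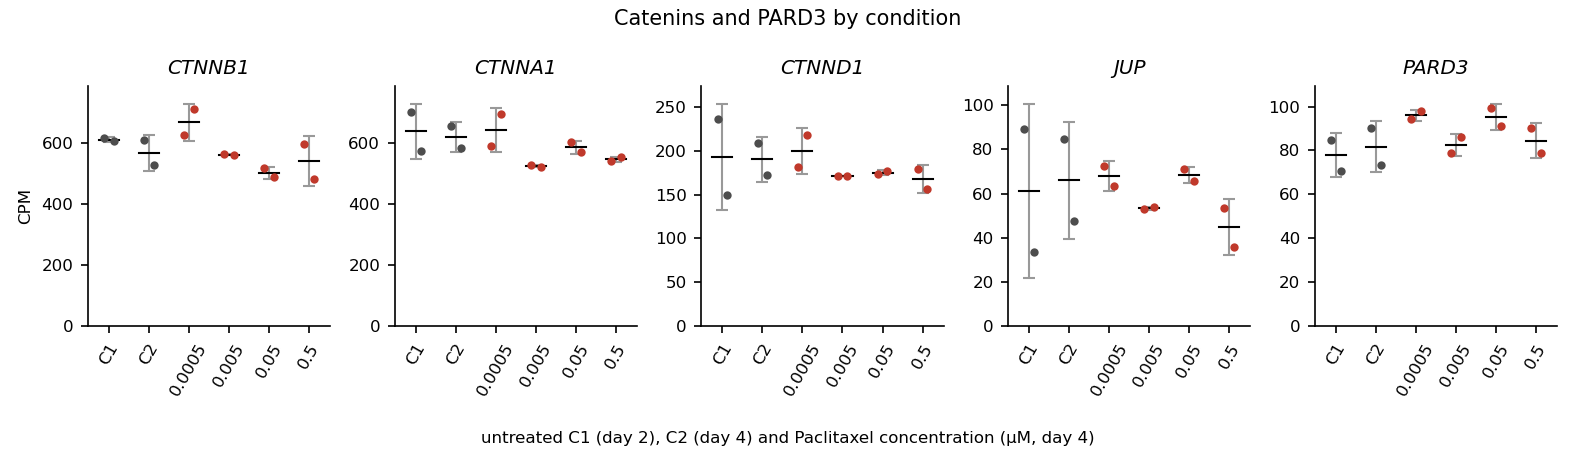
CPM of the 4 catenins and PARD3 in each sample (points), with condition means (lines) and SD (bars, n = 2), grey for untreated and red for Paclitaxel. The JUP replicates of C1 (89.1 and 33.4 CPM) lie far apart, and the CTNNA1 samples all lie between 523 and 702 CPM.

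PARD3 (ENSG00000148498, GRCh37 chr10:34398488-35104253, minus strand) is a scaffold of the PAR polarity complex, which settles near cell junctions. It had 85.0 and 70.7 CPM in C1 and 90.0 and 73.5 CPM in C2. The Paclitaxel samples had 78.8 to 99.5 CPM with a median of 90.6 CPM, and 5 of 8 lay above every untreated sample. The log2 difference was 0.18 (SE 0.10, adjusted p = 0.195, edgeR). It passed the threshold in 3 of 9 other settings, with upper quartile scaling (0.30, adjusted p = 0.0133, edgeR) and with GC and length offsets with or without a replicate term (0.25 in both, adjusted p = 0.0279 and 0.0230, edgeR).

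Of the 9 genes tested, CDH4 and CDH13 were called between Paclitaxel and untreated samples (2 of 9, against 24.5% of 23645 genes), CDH4 lower and CDH13 higher. By edgeR, CDH13 was the only one called at any dose against C2, higher each time. It entered these tests, and that of Paclitaxel against untreated samples, only through the Paclitaxel samples, as described below. DESeq2 also called CDH4 at 0.5 μM (-0.96, adjusted p = 0.0359). Of 25249 genes, 2.34% were called at 0.0005 μM (1.87% higher), 3.28% at 0.005 μM (2.5% higher), 8.32% at 0.05 μM (5.09% higher) and 6.32% at 0.5 μM (4.36% higher). None of the 9 was called between C2 and C1 (0.325% of genes; 1 of the 9 at an unadjusted p under 0.05 and 0 by DESeq2) or in the slope over doses (3.15% of genes; 3 of the 9 at an unadjusted p under 0.05 and 1 by DESeq2, CDH11). CDH6 had too few counts to be tested. With 2 samples against 2, an exact permutation test cannot give a two-sided p under 0.333, so dose results rest on the spread that edgeR shares across genes. The 4 dose comparisons share the C2 samples and are not independent.

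CDH4 (R-cadherin or retinal cadherin, ENSG00000179242, GRCh37 chr20:59827317-60515673, plus strand) is a classical cadherin that can pair with N-cadherin. CDH4 was at 57.4 and 22.8 CPM in C1 and at 36.1 and 25.5 CPM in C2. In Paclitaxel samples it was at 19.0 and 16.9 CPM at 0.0005 μM, 15.5 and 17.2 at 0.005 μM, 22.6 and 20.7 at 0.05 μM, and 17.1 and 14.9 at 0.5 μM. All 8 Paclitaxel samples lay below all 4 untreated samples, though the highest of them (22.6 CPM) was close to the lowest untreated sample (22.8 CPM). Of all genes tested, 6.14% had every Paclitaxel sample below every untreated one. CDH4 fell by 0.97 on the log2 scale (SE 0.18, adjusted p = 0.00148, edgeR), a 1.96-fold lower level. Of the 6314 genes with a mean of 20 to 100 CPM, as CDH4 has, 20.9% were called lower and 3.36% higher.

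The CDH4 difference kept its call when any 1 sample was left out, with -0.64 without C1 replicate 1 and -1.15 without C1 replicate 2 as the limits. It was -0.76 against the day 4 untreated samples alone (adjusted p = 0.00307, edgeR) and -0.80 with GC and length offsets (adjusted p = 0.000198, edgeR). Against C2, the log2 differences were -0.78, -0.91, -0.51 and -0.95 from the lowest to the highest dose, with adjusted p of 0.235, 0.146, 0.373 and 0.102 (edgeR). CDH4 passed the threshold at all 4 doses when either C1 sample was left out of the shared fit, with adjusted p of 0.000326 to 0.0188 without C1 replicate 1 and 0.000315 to 0.0207 without C1 replicate 2 (edgeR). The C1 samples are in the shared fit but in neither arm of these comparisons. Calls over all genes also rose without either C1 sample, and CDH4 passed in no other fit with 1 sample left out. Without C2 replicate 1, in the control arm, the CDH4 differences were -0.51, -0.64, -0.24 and -0.68 from the lowest to the highest dose. Without C2 replicate 2 they were -1.01, -1.15, -0.75 and -1.18. No trend with dose was seen, with a slope of -0.0047 (SE 0.06, adjusted p = 0.975, edgeR).

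Sequences around annotated starts are shown for CDH4, which was lower in all Paclitaxel samples, and for CTNNB1, which was not called. RefSeq windows (GRCh38.p14, 250 bases before to 50 after a start, 5′ to 3′) were matched for 4 of the 10 genes. The CDH4 windows belong to internal starts, 247160 and 347500 bases downstream of the first base of the gene, at chr20:61499171-61499470 and chr20:61599511-61599810 on the plus strand. The CTNNB1 window, chr3:41199255-41199554 on the plus strand, lies at the first base of the gene. Capitals mark the E-box letters CACCTG (reverse CAGGTG), which ZEB and Snail factors are known to bind, and the TCF/LEF letters CTTTGAT (reverse ATCAAAG), searched on both strands.
CDH4, upstream window: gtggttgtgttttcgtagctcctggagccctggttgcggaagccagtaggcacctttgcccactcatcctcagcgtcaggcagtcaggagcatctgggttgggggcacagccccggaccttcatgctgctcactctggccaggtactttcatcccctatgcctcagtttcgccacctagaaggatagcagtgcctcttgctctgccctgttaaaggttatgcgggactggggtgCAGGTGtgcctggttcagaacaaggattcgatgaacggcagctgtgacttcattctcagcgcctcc
CDH4, downstream window: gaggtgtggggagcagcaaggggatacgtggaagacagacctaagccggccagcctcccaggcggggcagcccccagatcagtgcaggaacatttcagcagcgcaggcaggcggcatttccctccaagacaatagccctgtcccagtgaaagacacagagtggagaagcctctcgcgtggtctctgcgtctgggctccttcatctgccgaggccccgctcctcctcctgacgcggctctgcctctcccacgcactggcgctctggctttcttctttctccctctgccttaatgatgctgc
CTNNB1: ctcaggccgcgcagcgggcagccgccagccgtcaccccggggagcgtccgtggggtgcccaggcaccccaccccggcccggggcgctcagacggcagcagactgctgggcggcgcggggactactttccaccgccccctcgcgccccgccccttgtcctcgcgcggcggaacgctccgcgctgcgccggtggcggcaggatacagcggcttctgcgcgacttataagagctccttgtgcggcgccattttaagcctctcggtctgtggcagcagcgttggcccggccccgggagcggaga
The upstream CDH4 window holds 1 E-box, beginning 16 bases before the start, and the other windows shown hold neither motif. Of the windows not shown, 1 of JUP holds 2 E-boxes, and 2 overlapping windows of CTNNA1 share 1 site with the TCF/LEF letters. Neither gene was called. Among 35116 windows of the same length, 20.6% held the E-box and 2.62% the TCF/LEF letters. The CTNNB1 window has 39 CpG dinucleotides, against 9 and 14 in the CDH4 windows and a median of 14 over all windows. The gene counts do not say which start was used.

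CDH11 (ENSG00000140937, GRCh37 chr16:64977656-65160015, minus strand) was the most abundant of the 20 cadherins. Its level was 406 and 289 CPM in C1, 655 and 456 in C2, 560 and 571 at 0.0005 μM, 504 and 500 at 0.005 μM, 499 and 459 at 0.05 μM, and 475 and 409 at 0.5 μM. The C1 samples were the 2 lowest of the 12. Between day 2 and day 4 without drug the log2 difference was 0.67 (SE 0.20), with an unadjusted p of 0.00594 and an adjusted p of 0.315 (edgeR). In this comparison 31.2% of all genes had replicates that did not overlap. Without C1 replicate 1 it was 0.94 (adjusted p = 0.00827, edgeR), and without C2 replicate 1 it was 0.38 (adjusted p = 0.745). Paclitaxel samples against untreated gave 0.15 (SE 0.16, adjusted p = 0.535, edgeR), and against the day 4 untreated samples alone -0.15. At 0.5 μM against C2 the difference was -0.33 (SE 0.20, adjusted p = 0.358, edgeR), and the slope over doses was -0.11 (SE 0.04, unadjusted p = 0.0183, adjusted p = 0.168 by edgeR).

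The ratio of CDH11 to CDH4 per kilobase was lower in untreated than in Paclitaxel samples. It was 4.01 and 7.19 in C1 and 10.3 and 10.1 in C2, and 12.5 to 19.1 in the 8 Paclitaxel samples, with no overlap. The lowest of the Paclitaxel ratios were the 0.05 μM samples (12.5 and 12.6). A ratio of 2 genes shows unequal change, not which gene moved.

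CDH3 (P-cadherin, ENSG00000062038, GRCh37 chr16:68670092-68761371, plus strand), a classical cadherin of basal epithelium, was low. It had 88 to 308 counts per sample, or 2.63 to 4.40 CPM in untreated and 2.39 to 4.09 CPM in Paclitaxel samples, and the groups overlapped. The log2 difference was -0.02 (SE 0.16, adjusted p = 0.948, edgeR). Its slope over doses was -0.17 per 10-fold dose (SE 0.06, unadjusted p = 0.00816, adjusted p = 0.113 by edgeR), with 4.08 ± 0.0216 CPM at 0.0005 μM and 2.76 ± 0.527 CPM at 0.5 μM (SD, n = 2).

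**Figure D3:**
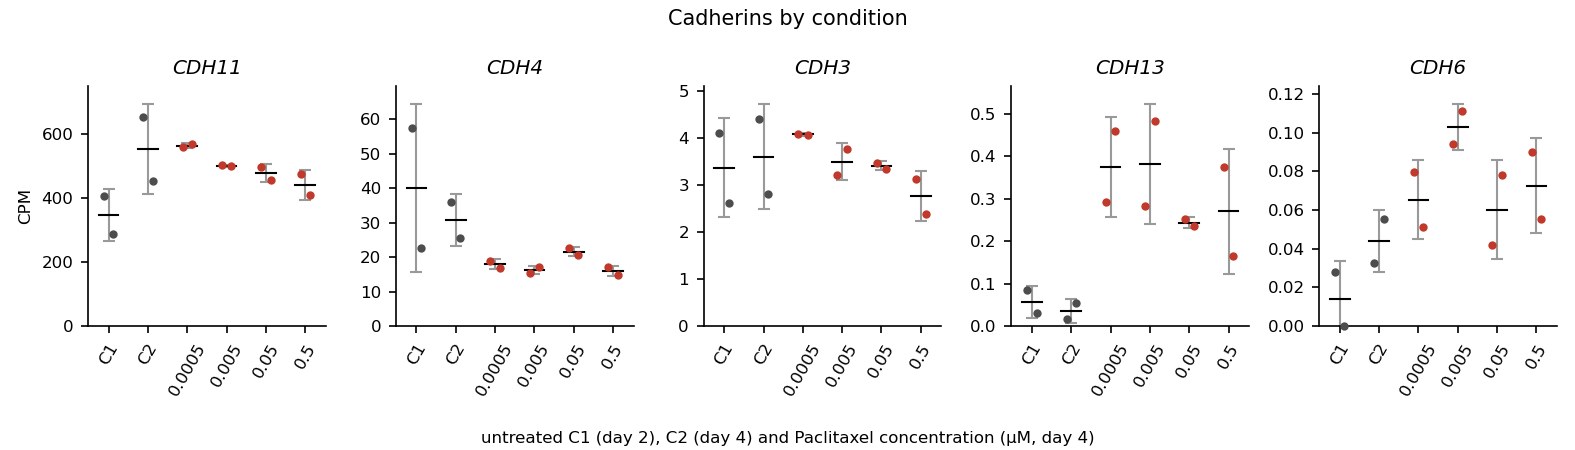
CPM of the 5 cadherins in each sample (points) with condition means (lines) and SD (bars, n = 2), each panel on its own axis from 0, grey for untreated and red for Paclitaxel. CDH4 is lower in all 8 Paclitaxel samples (14.9 to 22.6 CPM) than in the 4 untreated ones (22.8 to 57.4 CPM), and CDH13 stays under 0.5 CPM throughout.

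CDH13 (T-cadherin, ENSG00000140945, GRCh37 chr16:82660570-83834245, plus strand) is held in the membrane by a lipid anchor and has no tail for catenins. It had 6 and 1 counts in C1 and 1 and 3 in C2. With Paclitaxel the counts were 22 and 27 at 0.0005 μM, 24 and 39 at 0.005 μM, 18 and 18 at 0.05 μM, and 25 and 9 at 0.5 μM. Every Paclitaxel sample exceeded every untreated sample in CPM as well (0.166 to 0.483 against 0.0164 to 0.0843), as was so for 7.28% of genes. The summed counts were 182 in 8 Paclitaxel and 11 in 4 untreated samples, a depth-scaled ratio of 6.41 (95% exact interval 3.50 to 13.1, counting error only). The fitted log2 difference was 2.66 (SE 0.44, adjusted p = 0.000518, edgeR). The level stayed under 0.5 CPM in every sample.

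CDH13 belongs to a level band in which increases were common. Of the 5749 genes with a mean of 0.1 to 0.5 CPM, 22.7% were called higher and 0.678% lower between Paclitaxel and untreated samples, with a median log2 difference of 0.46. A gene was tested when at least 4 of the 12 samples reached 0.152 CPM, so it could enter through the Paclitaxel samples alone. CDH13 did, reaching that level in 8 of 8 Paclitaxel and 0 of 4 untreated samples, so its call adds nothing to the counts given above. A filter on a mean count of at least 10, over 12 samples of which 8 had Paclitaxel, was added after the data were seen. With it the band had 22.9% called higher and 0.738% lower. With the reported filter, 1180 genes of the band had no untreated sample at 0.152 CPM, as CDH13, and 65.7% were called higher. Of the 1577 with all 4 untreated samples at that level, 5.9% were called higher and 2.28% lower. CDH13 stayed called with the mean count filter (2.67, adjusted p = 0.000505, edgeR) and with 1 count in total (2.66, adjusted p = 4.4e-05, edgeR). Its mean count of 16.1 rests on the Paclitaxel samples, as its untreated counts were 1 to 6. The call with the mean count filter therefore adds nothing to the counts either. Over all genes 13% were called higher and 11.5% lower. Levels of markers of other cell types are given beside these shares. The summed level of 4 endothelial markers (CDH5, VWF, KDR and TEK) was 0.626 to 1.65 CPM in untreated and 2.08 to 3.24 CPM in Paclitaxel samples. The 9 fibroblast markers summed to 9.34 to 17.1 and 13.1 to 21.8 CPM, which overlapped. The leukocyte markers PTPRC, CD3E, CD14 and LYZ summed to 0.447 to 0.699 and 1.14 to 1.77 CPM, which did not overlap. Of the endothelial markers 1 of 4 reached 1 CPM in the Paclitaxel samples and none in untreated ones. Their part in the CDH13 result was not tested. In bulk RNA, fewer cells with a transcript and less RNA per cell cannot be told apart.

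**Figure D4:**
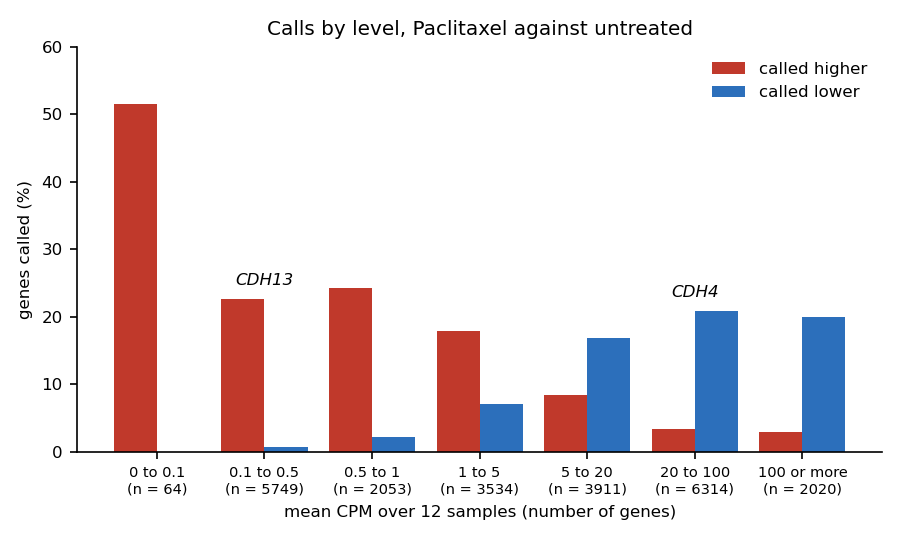
Percentage of genes called higher (red) and lower (blue) in Paclitaxel against untreated samples by mean CPM over the 12 samples, with the number of genes in each band; the names mark the bands of CDH13 and CDH4. Increases dominate below 5 CPM (22.7% higher and 0.678% lower at 0.1 to 0.5 CPM) and decreases above it (20.9% lower at 20 to 100 CPM).

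At single doses the CDH13 call rested on few counts and changed with single samples. Its depth-scaled count ratio to C2 was 10.6 (3.87 to 40.3) at 0.0005 μM, 10.98 (4.08 to 41.6) at 0.005 μM, 7.03 (2.52 to 27.2) at 0.05 μM and 8.11 (2.89 to 31.5) at 0.5 μM, each against 4 counts. The adjusted p was 0.0281, 0.0223, 0.0395 and 0.0383 (edgeR). In this fit too CDH13 was tested only through the Paclitaxel samples, as no untreated sample reached 0.152 CPM. These calls therefore add nothing to the counts. Every dose call was lost without C2 replicate 1 (adjusted p = 0.217 to 0.306, edgeR), without C2 replicate 2 (0.0705 to 0.0935), and without either sample of the dose itself (0.0529 to 0.214). It was also lost at 0.05 μM without a sample of the 2 lower doses (0.0537 to 0.0574), at 0.5 μM without a sample of any other dose (0.0534 to 0.0611) and at 0.0005 μM without 0.05 μM replicate 2 (0.0504). The comparison of all Paclitaxel with all untreated samples kept its call when any 1 of the 12 samples was left out (adjusted p = 0.000417 to 0.00305, edgeR). An antisense gene (CDH13-AS2) covers 21.4% of the exon length of CDH13. The strand setting of the counting is not given in the sources used here.

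CDH6 (K-cadherin, ENSG00000113361, GRCh37 chr5:31193793-31329253, plus strand), a type II cadherin known from kidney, was at the limit of detection. It had 0 to 9 counts per sample and 51 in all. The 8 Paclitaxel samples held 44 of these and the 4 untreated samples 7, a depth-scaled ratio of 2.43 (95% exact interval 1.09 to 6.41, counting error only), and the ranges in CPM overlapped (0 to 0.0552 and 0.0421 to 0.111). CDH1 likewise gave 72 and 13 counts, a ratio of 2.15 (1.18 to 4.22). Neither was tested in this comparison.

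**Figure D5:**
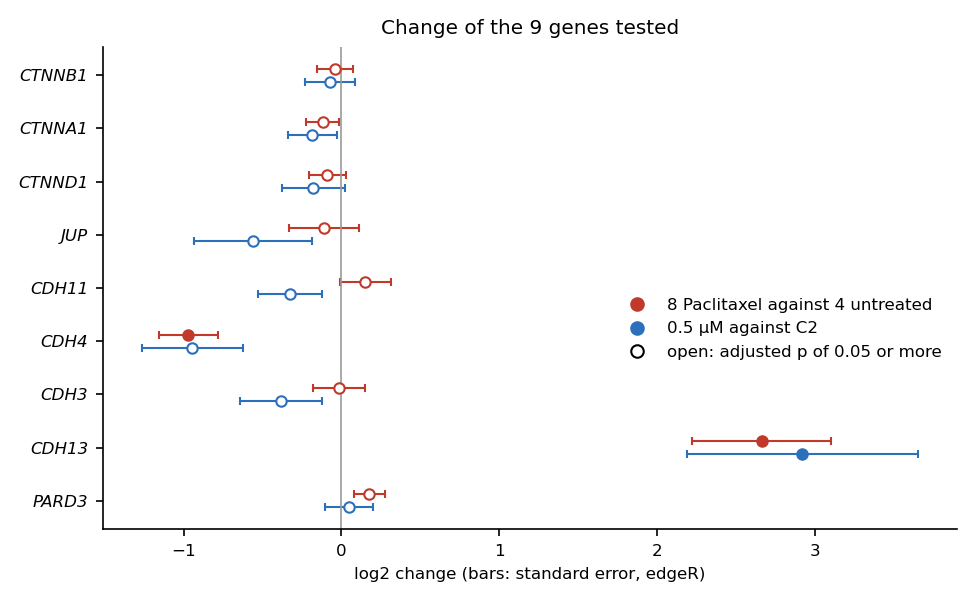
log2 difference of the 9 tested genes with its standard error (edgeR), for 8 Paclitaxel against 4 untreated samples (red) and for 0.5 μM against C2 (blue); filled points have an adjusted p under 0.05. CDH4 (-0.97) and CDH13 (2.66) are filled in the first comparison, CDH13 (2.92) alone in the second.

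At 0.5 μM against C2, 7 of the 9 genes were lower and 2 higher, with a median log2 difference of -0.18, where all genes tested had a median of 0.036 and genes above 8 CPM, as 7 of the 9 are, one of -0.11. The catenins differed by -0.18 (CTNNA1, SE 0.16), -0.07 (CTNNB1, SE 0.16), -0.18 (CTNND1, SE 0.20) and -0.56 (JUP, SE 0.37), none past the threshold. CDH3 differed by -0.38 (SE 0.26) and PARD3 by 0.05 (SE 0.15). At 0.0005 μM 8 of 9 were higher than in C2, and at the middle doses 2 and 3 of 9. The median at 0.0005 μM was 0.07, against -0.011 over all genes and -0.042 above 8 CPM. In the slope over doses all 9 estimates were negative, from -0.0047 (CDH4) to -0.20 (CDH13), and none passed the threshold. Their median was -0.11, against 0.006 over all genes and -0.021 above 8 CPM. The genes share the same libraries and scaling, so their signs are not independent.

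Genes that work with these were taken as 8 lists of 128 genes in all, of which 113 were tested between Paclitaxel and untreated samples. 5 were called higher and 22 lower, 23.9% of those tested against 24.5% of all genes. Of the 5 called higher, at least 3 (NECTIN4, PKP1 and CAMSAP3) entered the test only through the Paclitaxel samples, where they are high. Not all 5 were checked for this, and nothing is read from the share. By direction, 11.5% of all genes were called lower and 13% higher, and among genes of 20 CPM or more, where most of the lower calls named here lie, 20.9% (20 to 100 CPM) and 20% (100 CPM and above) were called lower. The counts for single lists below are descriptions beside these shares. Leaving out each of the 12 samples for the list genes named below was added after the data were seen. It covered only Paclitaxel against untreated samples, not their calls at single doses or in the slope. The median log2 difference was -0.12. At single doses against C2, with 115 tested, 1, 3, 3 and 3 were called higher and 1, 0, 5 and 3 lower from the lowest to the highest dose. These were 1.74%, 2.61%, 6.96% and 5.22% of those tested, against 2.34%, 3.28%, 8.32% and 6.32% of all genes.

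Among the 16 linkers to actin, 5 were called lower and 0 higher, with a median log2 difference of -0.18. VCL (vinculin, recruited to α-catenin under tension) was at 460 to 625 CPM in untreated and 316 to 389 CPM in Paclitaxel samples, with no overlap and a log2 difference of -0.59 (SE 0.10, adjusted p = 0.000518, edgeR). PDLIM5, a PDZ and LIM protein of actin fibres, was at 251 to 327 and 164 to 233 CPM, also without overlap, and differed by -0.57 (adjusted p = 0.00123, edgeR). VCL and PDLIM5 kept their calls when any 1 sample was left out. ACTN4, an α-actinin that crosslinks actin, was at 823 and 411 CPM in C1, 639 and 455 in C2 and 335 to 473 in Paclitaxel samples, which overlap. It differed by -0.47 (adjusted p = 0.0336, edgeR), and the call was lost without C1 replicate 1 (-0.27, adjusted p = 0.204) and without C2 replicate 1, either 0.005 μM sample or 0.5 μM replicate 2 (adjusted p = 0.0509 to 0.0925). VCL was also called at 0.05 and 0.5 μM, with -0.62 and -0.65 (adjusted p = 0.0387 and 0.0408, edgeR). So was PDLIM5, with -0.67 and -0.69 (adjusted p = 0.0239 and 0.0269, edgeR). These dose calls were not refitted without single samples.

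Among the 19 polarity partners of PARD3, 4 were called lower and 0 higher, with a median log2 difference of -0.13. DLG1, of the Scribble polarity module, was at 83.8 to 90.4 CPM in untreated and 64.8 to 73.0 CPM in Paclitaxel samples, with no overlap, and differed by -0.32 (adjusted p = 0.00581, edgeR). LLGL1, of the same module, was at 60.2 and 30.7 CPM in C1, 47.5 and 34.2 in C2 and 21.5 to 33.1 in Paclitaxel samples, which overlap. It differed by -0.62 (adjusted p = 0.00688, edgeR) and by -0.42 without C1 replicate 1, and both kept their calls without any 1 sample. PARD6B, a direct partner of PARD3, was at 25.4 to 43.2 CPM in untreated and 19.4 to 27.9 in Paclitaxel samples. It differed by -0.42 (adjusted p = 0.0217, edgeR), and without C2 replicate 1, its highest sample, by -0.26 (adjusted p = 0.128). PARD3 itself was not called.

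Of the 9 nectins and afadin, 4 were called lower and 1 higher, with a median log2 difference of -0.26. NECTIN1 was at 39.4 and 12.6 CPM in C1, 20.8 and 14.5 in C2 and 11.4 to 17.0 in Paclitaxel samples. The groups overlapped, and C1 replicate 1 alone stood far above the rest. The difference of -0.70 (adjusted p = 0.0316, edgeR) became -0.25 without that sample (adjusted p = 0.306), and the call was also lost without C2 replicate 1 or any 1 of the 0.005 and 0.5 μM samples (adjusted p = 0.0504 to 0.0578). PVR was at 91.6 and 46.8 CPM in C1, 77.9 and 64.8 in C2 and 40.6 to 58.3 in Paclitaxel samples, which overlap. Its difference of -0.45 (adjusted p = 0.0234, edgeR) lost its call without C1 replicate 1 (-0.30, adjusted p = 0.122) or C2 replicate 1 (-0.40, adjusted p = 0.0749). NECTIN4 had 4, 0, 0 and 0 counts in the untreated samples and 5 to 23 in the Paclitaxel samples, a depth-scaled ratio of 10.1 (3.82 to 37.7). All 4 untreated counts came from C1 replicate 1, and without it the fitted log2 difference moved from 3.24 to 6.59. NECTIN4 reached 0.152 CPM in 5 Paclitaxel and 0 untreated samples, so it was tested only through the group where it was high. A mean count of at least 10 left it out, and with a filter of 1 count in total it was called (adjusted p = 0.000438, edgeR). Against C2, where it had 0 counts, the ratio was 4.02, 5.58, 10.7 and 7.95 from the lowest to the highest dose, with 3 counts set for the C2 pair. These ratios leave out the counting error of the Paclitaxel samples. At the lowest dose NECTIN4 was not called (adjusted p = 0.0595, edgeR).

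Of 8 further armadillo and catenin genes tested, 2 were called lower and 1 higher, with a median log2 difference of -0.14. CTNNAL1 (α-catulin) was at 173 to 250 CPM in untreated and 133 to 164 in Paclitaxel samples, without overlap. It differed by -0.33 (adjusted p = 0.0337, edgeR), and the call was lost without C1 replicate 2, its highest sample (-0.21, adjusted p = 0.0774), either 0.005 μM sample or 0.05 μM replicate 2 (adjusted p = 0.0573 to 0.0634). CTNNBIP1, which blocks the binding of β-catenin to TCF factors, differed by -0.32 (adjusted p = 0.0229, edgeR), and the call was lost without C1 replicate 1 (adjusted p = 0.0778) or C2 replicate 1 (0.0618). PKP1, a desmosomal armadillo protein, had 1, 0, 0 and 0 counts in untreated and 3 to 26 in Paclitaxel samples. It too was tested only through the Paclitaxel samples (0.152 CPM reached in 5 of 8 and in 0 of 4 untreated). It was called with a mean count of at least 10 (adjusted p = 0.000393, edgeR) and with 1 count in total (8.01e-06). The mean count was also reached only through the Paclitaxel samples, so that call adds nothing to the counts. Against C2 the PKP1 ratio was 6.60, 10.2, 11.7 and 3.50 by dose, again with 3 counts set for the C2 pair and without the counting error of the Paclitaxel samples. The mean level of PKP1 was 0.139 CPM and that of NECTIN4 0.127 CPM, in the band of CDH13.

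Of 22 tested genes of the β-catenin destruction complex and its nuclear partners, 3 were called lower and 1 higher, with a median log2 difference of -0.11. PYGO1 and PYGO2 join β-catenin in the nucleus. PYGO1 was at 9.16 to 11.8 CPM in untreated and 6.14 to 7.27 in Paclitaxel samples, without overlap, and differed by -0.60 (adjusted p = 0.000359, edgeR). PYGO2 was at 50.7 and 22.8 CPM in C1, 34.7 and 27.1 in C2 and 21.6 to 25.3 in Paclitaxel samples, which overlap. Its difference of -0.52 (adjusted p = 0.0174, edgeR) became -0.27 without C1 replicate 1 and was no longer called (adjusted p = 0.105). LGR5, an R-spondin receptor and known Wnt target, had 8 to 25 counts in untreated and 26 to 84 counts in Paclitaxel samples, a log2 difference of 1.41 (SE 0.27, adjusted p = 0.00169, edgeR). Its mean level was 0.544 CPM, and of the 2053 genes with 0.5 to 1 CPM, 24.3% were called higher and 2.14% lower. All 4 untreated samples of LGR5 reached 0.152 CPM.

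Of 23 genes of cadherin trafficking and phosphorylation, 3 were called lower and 2 higher, with a median log2 difference of -0.14. PTPRF, a receptor phosphatase, was at 195 and 84.6 CPM in C1, 154 and 116 in C2 and 74.2 to 115 in Paclitaxel samples, which overlap. It differed by -0.49 (adjusted p = 0.0390, edgeR), and the call was lost without C1 replicate 1 (-0.28, adjusted p = 0.223), C2 replicate 1 or any 1 of the 0.005 and 0.5 μM samples (adjusted p = 0.0582 to 0.109). CAMSAP3, which holds microtubule minus ends at junctions, had a mean level of 0.174 CPM, in the band where increases were common, and reached 0.152 CPM in 7 Paclitaxel and 0 untreated samples. It differed by 1.27 (adjusted p = 0.0243, edgeR), and the call was lost without either C1 sample or C2 replicate 1 (adjusted p = 0.0546 to 0.0892). EXOC4 of the exocyst was not called between Paclitaxel and untreated samples (-0.31, adjusted p = 0.0804, edgeR). It was called at 0.5 μM against C2 (-0.61, adjusted p = 0.0447, edgeR) and in the slope over doses (-0.19 per 10-fold dose, adjusted p = 0.0180, edgeR).

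Of 10 further classical and type II cadherins tested, 1 was called lower and 0 higher. It was CDH12, with a log2 difference of -0.54 (SE 0.13, adjusted p = 0.00771, edgeR) from a mean level of 2.95 CPM. Its levels overlapped (2.92 to 4.19 CPM untreated, 2.14 to 3.15 CPM with Paclitaxel), and the call held without any 1 sample. The 6 desmosome genes tested lay 3 above and 3 below 0, with a median log2 difference of 0.028.

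The genes whose log2 CPM ran most like that of 3 variable members over the 12 samples were sought among 11090 genes. For CDH4 they were AXL, a receptor tyrosine kinase (Pearson r = 0.992, Spearman rho = 0.993), SMARCC2 (0.991 and 0.986) and DNMT1 (0.990 and 0.972). For CDH11 they were PTPRE (0.972 and 0.944), CPE (0.960 and 0.930) and SNX21 (0.946 and 0.972). For JUP they were SOWAHC (0.988 and 0.993), GRN (0.983 and 0.965) and LSR (0.979 and 0.937). All points share libraries, depth and the GC lean of the C1 pair, so these are descriptions only.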

How the data were processed

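RNA-seq counts for 12 samples (2 per condition) were analysed. Per the labels and the methods, the authors cleaned reads with Trimmomatic 0.39, checked them with FastQC 0.11.9, aligned them to GRCh37 with STAR 2.7.5 and counted them per Ensembl gene with Rsubread; the deposited values are raw counts. Symbols, lengths and overlaps came from GENCODE lifted to GRCh37, with 55665 of 63568 identifiers named. Promoters are RefSeq's.

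edgeR 4.0.16 (R 4.3.3, limma 3.58.1) fitted quasi-likelihood models with TMM scaling and filterByExpr to 3 designs: 6 conditions (25249 genes, 6 residual degrees of freedom, each dose against C2, and C2 against C1), treated against untreated (23645 genes) and the slope on log10 dose (25057 genes). p-values were Benjamini-Hochberg adjusted over all genes tested, with a threshold of 0.05. log2 CPM used a prior count of 2. DESeq2 1.42.0, other scalings, filters, offsets and left-out samples were the alternatives, and the scripts were tested on simulated data. The named genes were all 10 members, CDH1, CDH2, per list at most 3 called genes by size at 0.5 μM, and the 3 most correlated genes for 3 variable members. 1 marker is not reported here. Members and lists were chosen with earlier results of these data known. The methods call the 2 samples of a condition biological replicates; the labels do not say whether they were separate cultures, so p-values measure the spread between these samples.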

Additional observations from a re-analysis of the deposited data

Results flagged for a closer look

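Within the 4 untreated or the 8 Paclitaxel samples, 20 sets of values of the 10 genes were examined for 1 sample far from the others, which chance alone marks in about 1 set in 20. 3 sets held one. CTNNB1 in C2 replicate 2 (528 CPM against 607 to 617 CPM in the other untreated samples) lay at a gap of 0.896 of the range. CTNND1 in 0.0005 μM replicate 2 (218 CPM, next 182 CPM) lay at a gap of 0.555 of the range of the Paclitaxel samples. JUP in 0.5 μM replicate 2 (35.8 CPM, next 52.8 CPM) lay at a gap of 0.550.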

How the results depend on the processing

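CDH4 and CDH13 kept direction and call between Paclitaxel and untreated samples in all 9 other settings (CDH4 -0.99 to -0.76, CDH13 2.65 to 3.14) and in all 12 fits without 1 sample. The count of the 10 genes called was 2 at 0.5 μM with DESeq2, with GC and length offsets, with the replicate block plus these offsets and in the 4 samples alone, and 3 with a filter of 1 count (JUP, CDH4 and CDH13). It was 2 at 0.005 μM with that filter, the offsets, the block plus offsets and the 4 samples, and 2 at 0.0005 μM with the filter and the 4 samples. It was 1 for C2 against C1 with the filter (CDH11), and 1 for the slope with DESeq2 (CDH11) and with the filter (JUP). Without 1 sample it ran from 0 to 2 at each dose, 0 to 1 for C2 against C1, 2 to 2 for Paclitaxel against untreated and 0 to 0 for the slope.

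These differences turned sign. With upper quartile scaling, Paclitaxel against untreated gave CTNNA1 0.0068, CTNNB1 0.079, CTNND1 0.041, JUP 0.032 and CDH3 0.11, and 0.5 μM gave CTNNB1 0.039. With GC and length offsets these were CTNNB1 0.065, CTNND1 0.028, JUP 0.022 and CDH3 0.082, and 0.041 for CTNNB1 at 0.5 μM. With the replicate block plus offsets they were CTNNB1 0.065, CTNND1 0.034, JUP 0.056 and CDH3 0.090, and 0.039 at 0.5 μM. The block alone turned CDH3 to 0.0045, and the day 4 untreated samples alone gave CTNNB1 0.011 and CDH11 -0.15. The cause was not tested. Without 1 sample, CTNNB1 (-0.26 to 0.070) and PARD3 (-0.10 to 0.20) at 0.5 μM, CDH4 for C2 against C1 (-0.39 as reported, -0.87 to 0.44, the latter without C1 replicate 1), and CTNND1 (-0.21 to 0.019), JUP (-0.34 to 0.090), CDH3 (-0.14 to 0.11) and CDH11 (-0.029 to 0.38) for Paclitaxel against untreated changed sign.

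Replicate numbers did not pair the samples (8 of 15 pairs of conditions had correlated deviations over 0.1, range -0.60 to 0.68), and the block moved the genes called in the slope from 789 to 421. Over all genes, calls ran from 632 to 2624 at 0.0005 μM (592 reported), 814 to 2592 at 0.005 μM (827), 1892 to 2952 at 0.05 μM (2100), 1498 to 2807 at 0.5 μM (1596), 0 to 390 for C2 against C1 (82), 3408 to 6774 for Paclitaxel against untreated (5786) and 421 to 1690 for the slope (789) in the other settings. Without C2 replicate 1 they fell to 144, 85, 321 and 129 by dose and without C2 replicate 2 to 248, 304, 834 and 569. They rose to 2472, 3316, 4818 and 4955 without C1 replicate 1 and to 2552, 3231, 4843 and 5046 without C1 replicate 2, where C2 against C1 gave 2682 and 1884. Depth limits CDH6, CDH13 and CDH1, at 39 counts or fewer per sample.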
